A study of Mus musculus with 2 samples.

Results

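Prol1, Smr2 and Pip are 3 of the 32285 genes counted in this single-cell series, and they are described here across 2 libraries of mouse prostate. They were chosen by their measured values, since they stood out in the proximal library, so their levels are given as a description and no test is attached to them. Single-cell RNA sequencing was run on dissociated prostate of wild-type male C57BL6 mice, with no treatment named, and the age and number of the animals are not given in the sources used here. One library came from the ventral lobes (10x Genomics 3' kit, version 2) and the other from the proximal and periurethral region, the tissue next to the urethra (version 3). Each region is 1 library, so no difference between them has a replicate check, and the region cannot be told apart from the kit version.

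Exocrine glands such as the salivary, lacrimal and sweat glands release proteins and fluid through ducts, and their secretory cells devote much of their RNA to a few abundant products. Prol1 encodes a proline-rich secreted protein of lacrimal and salivary glands and is also listed as Muc10, a salivary mucin. Smr2 encodes a small proline-rich protein named for its regulation by androgen in the submaxillary gland of rodents. Pip, the prolactin-induced protein, is a small secreted glycoprotein found in saliva, tears, sweat and seminal fluid. The prostate is itself an exocrine gland, and its lobes secrete other products, such as Sbp (spermine-binding protein), Spink1 (a trypsin inhibitor), Pbsn (probasin) and Msmb.

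In mm10 (GRCm38, GENCODE vM21), Prol1 (ENSMUSG00000064156) lies at chr5:88317312-88328814 on the plus strand with 3 exons, and Smr2 (ENSMUSG00000029281) lies on the same strand at chr5:88086556-88109053, ending 208259 bases before Prol1 starts. Genes of other secreted proteins lie before Smr2, including Smr3a at chr5:88002549-88008534 and Odam at chr5:87885029-87894174, while the genes annotated between Smr2 and Prol1 carry Gm numbers. Pip (ENSMUSG00000058499) lies on another chromosome, at chr6:41847535-41852065, also on the plus strand. No annotated gene overlaps any of the 3. None of the windows of 91 bases, the length of the sequenced read, in the transcripts of Prol1 (1073 windows), Smr2 (1423) or Pip (2476) occurs in a transcript of another gene. The 3 promoters are shown because the genes were high in overlapping sets of cells while lying on 2 chromosomes. Each line gives the 100 bases before the RefSeq start of the gene (GRCm38.p6, plus strand, 5′ to 3′), with a TATA box core (TATAAA) and a STAT-type site (TTCNNNGAA) in capitals where found. The end of the Pip line lies inside the GENCODE gene, which starts at 41847535.
Prol1, chr5:88317212-88317311: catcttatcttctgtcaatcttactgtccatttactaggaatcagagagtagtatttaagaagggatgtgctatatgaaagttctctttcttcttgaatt
Smr2, chr5:88086456-88086555: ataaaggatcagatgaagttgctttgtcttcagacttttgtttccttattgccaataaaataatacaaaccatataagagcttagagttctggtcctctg
Pip, chr6:41847449-41847548: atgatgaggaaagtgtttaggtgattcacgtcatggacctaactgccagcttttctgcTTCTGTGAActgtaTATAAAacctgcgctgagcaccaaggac

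Of the 5 motifs searched on both strands in the 250 bases before each start, none was found before all 3 genes. Before Pip the TATA core began 28 and 225 bases from the start, the STAT-type site 42 and 140 bases, and the androgen response half-site AGAACA 190 bases. Before Prol1 only the forkhead site TGTTTAC was found, 116 bases from the start, and before Smr2 none of the 5 was found; the E-box CATATG was found before none of the 3. Among 32851 mouse promoters of that length, 12.4% held TATAAA, 7.02% the STAT-type site, 16.1% AGAACA, 3.17% TGTTTAC and 3.46% CATATG. A match is a description of the letters only.

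The matrices held 2221 ventral and 4344 proximal barcodes with 49356586 and 97817603 molecules counted by unique molecular identifier (UMI). Cells with at least 500 genes and at most 10% mitochondrial UMIs were kept, 1995 ventral and 3709 proximal, with medians of 25761 and 15266 UMIs per cell. The libraries shared 0 barcodes. Intervals below are exact 95% intervals (Poisson for counts, Clopper-Pearson for shares) and cover counting error only. Levels are CPM, a gene's UMIs per 1000000 UMIs, and since the kits count 3' ends they are not divided by gene length.

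All 3 genes were higher in the proximal library. Prol1 had 57245 UMIs in the proximal library, 609 CPM (604 to 614), and 0 UMIs in the ventral library, where the limit taken for a count of 0 is 3 counts (0.0615 CPM), a lower limit than the upper end of the exact interval (0.0756 CPM). Against 3 counts, its proximal level was at least 9903-fold higher than the ventral level. Smr2 had 3666 proximal UMIs, 39.0 CPM (37.7 to 40.3), and 2 ventral UMIs in 2 cells, a ratio of 951 (263 to 7858). Pip had 3262 proximal UMIs, 34.7 CPM (33.5 to 35.9), and 142 ventral UMIs, 2.91 CPM (2.45 to 3.43), a ratio of 11.9 (10.1 to 14.2). Without the 10 cells with most Pip in each library the levels were 1.93 and 0.433 CPM, a ratio of 4.46. Prol1 was far above the other two in the proximal library. Smr2 and Pip cannot be put in order, since without each gene's top cell they were at 24.4 and 24.9 CPM.

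These sums were carried by very few cells. The single cell with most Prol1 held 18238 UMIs, 31.9% of all Prol1 in the proximal library, the top 2 cells held 49.2%, the top 5 held 76.3% and the top 10 held 92.0%. Without the top cell the library's Prol1 level was 415 CPM, and without the top 10 it was 49.0 CPM. For Smr2 the top cell held 1368 UMIs (37.3%), the top 2 held 67.5% and the top 10 held 91.7%, and the level without those 10 was 3.24 CPM in place of 39.0. For Pip the top cell held 916 UMIs (28.1%), the top 5 held 81.1% and the top 10 held 94.5%, and the level without those 10 was 1.93 CPM in place of 34.7.

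**Figure D1:**
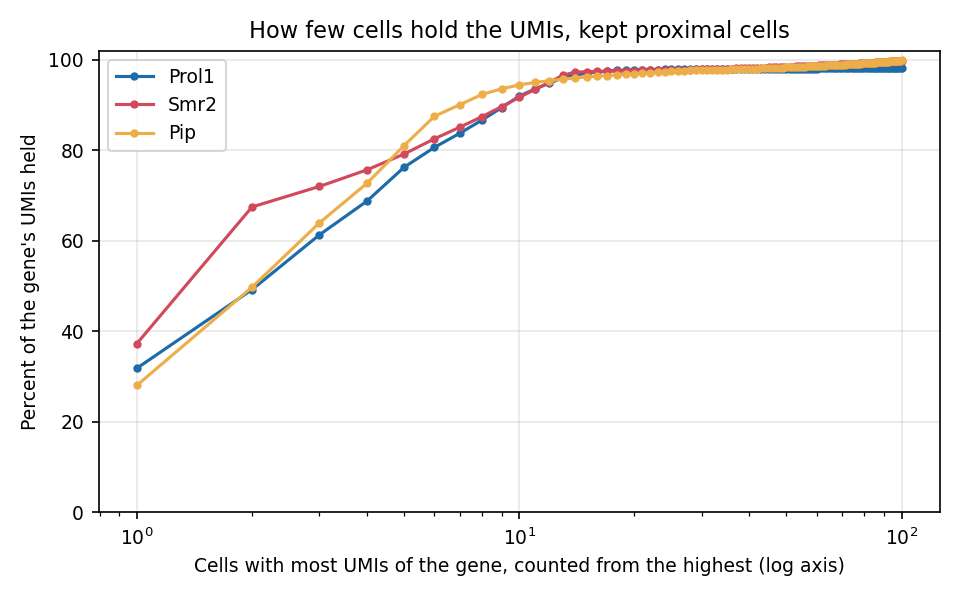
Cumulative share of each gene's UMIs (vertical axis, percent) held by the cells with most of them (horizontal axis, number of cells on a log scale) in the proximal library. The curves pass 90% by 10 cells for all 3 genes.

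Many more cells held a trace. Prol1 had at least 1 UMI in 954 proximal cells (25.7%, 24.3 to 27.2), but 696 of these held 1 UMI and 231 held 2 to 4, with 1.22% and 0.90% of the Prol1 UMIs. Only 22 cells held 10 or more. After thinning to 1000 UMIs, which left out 18 shallower cells, 2.22% of 3691 cells held Prol1. Smr2 had a UMI in 107 cells (2.88%), 88 of them with 1 UMI and 14 with 10 or more. Pip had a UMI in 105 cells (2.83%), 78 of them with 1 UMI and 13 with 10 or more. Counts of 5 to 9 UMIs were found in 5 cells for Prol1, 0 for Smr2 and 7 for Pip. Counts of 10 to 99 were found in 5, 8 and 7 cells, and of 100 or more in 17, 6 and 6 cells.

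A cell was called high when at least 1% of its UMIs came from the 3 genes together, which 18 of 3709 proximal cells met (0.485%, 0.288 to 0.766). They held 60923 of the 64173 UMIs of the 3 genes, 94.9%. Since the counts of the 3 genes chose these cells, their values are a description. The cells are numbered 1 to 18 by the share of their UMIs from the 3 genes. Just inside the limit, cell 18 had 1.66% of its 2408 UMIs from them, and just outside it, the next cell had 0.993% of 16315 UMIs (20 Prol1, 58 Smr2 and 84 Pip). The high cells had a median of 13134 UMIs (2408 to 57085) and 2337 genes, against 15278 UMIs and 3609 genes in the other 3691 cells.

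Prol1 was present in all 18 high cells and was the most abundant of the 3 in 17. In cell 1, 9940 of 20861 UMIs were Prol1, 47.6% of all RNA counted in that cell, beside 25 Smr2 and 28 Pip UMIs. Cell 3, the deepest of the 18, held 18238 Prol1, 57 Smr2 and 463 Pip UMIs of 57085. Cell 2 was the only cell past 1% in each gene on its own, with 6917 Prol1, 1368 Smr2 and 707 Pip UMIs of 23786. These first 3 cells had from 32.9% to 47.9% of their UMIs from the 3 genes.

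Smr2 and Pip were each prominent in some of the Prol1-rich cells and missing from others. Cell 13 was the exception to the order of the genes: it held 1106 Smr2 UMIs (5.81% of its RNA), 38 Prol1 and 0 Pip. Cell 6 held the most Pip, 916 UMIs or 5.23% of its RNA, with 2511 Prol1 and 0 Smr2. Cells 5, 11 and 12 had the same makeup, with 74, 271 and 211 Pip UMIs, 4289, 1664 and 917 Prol1 UMIs and 0 Smr2. Cells 14, 16 and 17 held 239, 156 and 120 Prol1 UMIs with 0 Smr2 and 3 Pip at most. The shallow cell 7 held all 3 genes, with 340 Prol1, 166 Smr2 and 12 Pip UMIs of 2654, while cell 15 held 676, 1 and 6 and cell 18 held 31, 4 and 5. In all, 11 high cells held Smr2 (9 with 10 or more UMIs) and 15 held Pip (8 with 10 or more), and 17 cells were past 1% in Prol1, 3 in Smr2 and 4 in Pip. All 4 cells past 1% in Pip and 2 of the 3 past 1% in Smr2 were also past it in Prol1.

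**Figure D2:**
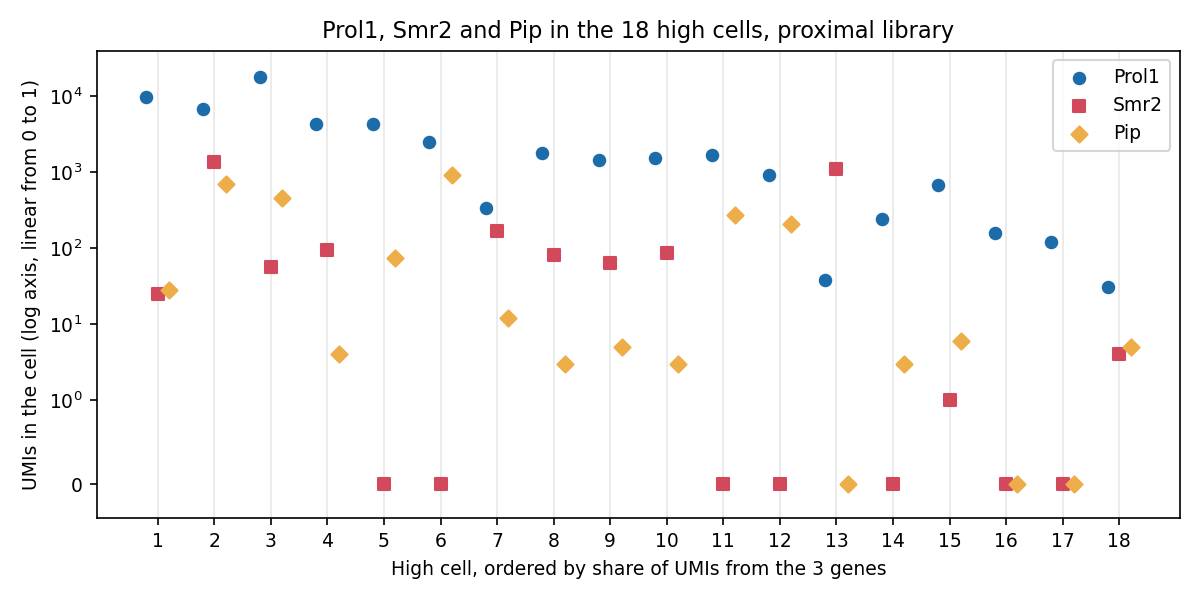
UMIs of Prol1 (circles), Smr2 (squares) and Pip (diamonds) in each of the 18 high cells, on a log axis that is linear from 0 to 1. Prol1 is the highest in every cell except cell 13, and Smr2 is at 0 in 7 of the cells.

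A second abundant product divided the high cells. The gene 2310057J18Rik (Leg1 in RefSeq, on chromosome 10), which encodes a secreted protein, had 18720 UMIs in the high cells, 88.4% of all its UMIs in the library; it was named after its values were seen. It was at 10 or more UMIs in 9 of the 18: 782, 5289, 8437 and 1115 UMIs in cells 1 to 4, 205, 962, 898 and 995 in cells 7 to 10, and 34 in cell 18. The other 9 cells held 0 or 1. Only 2 further cells of the library had 10 or more, and both lay under the limit for high cells: 1 with 2137 UMIs beside 733 Prol1 UMIs among 106071 in all, and 1 distal luminal-like cell with 53 UMIs beside 14 Prol1, 123 Smr2 and 287 Pip among 70754.

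Among the 18 barcodes, a set of 4 was more alike than any other pair of them. Each pair was compared by a chi-square over the genes with at least 5 expected UMIs in both, without the 3 genes and the mitochondrial genes, where a value of 1 per degree of freedom is what counting noise alone gives. The 6 pairs among cells 4, 8, 9 and 10 gave 1.02 to 1.24 over 183 to 213 genes. The other 147 pairs gave at least 2.01, with a median of 11.2. Other cells of the same depth (8970 to 13644 UMIs) were compared within their clusters, with at most the first 60 cells of each. Of 13261 such pairs, 5 were under 1.5 and the lowest was 1.05, so pairs as alike also occurred elsewhere. The cluster that holds the 4 barcodes had too few other cells at that depth and is not among those compared. The 4 barcodes differed from each other at 8 to 14 of 16 positions. Outside the 3 genes they held 9272, 8810, 7457 and 8407 UMIs, and they held 1115, 962, 898 and 995 UMIs of 2310057J18Rik and 76, 73, 61 and 72 of Odam.

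Prol1 differed within these 4 barcodes: it made up 31.3% of the RNA in cell 4 (4273 UMIs) and 16.8%, 16.1% and 15.6% in cells 8, 9 and 10 (1802, 1444 and 1565 UMIs), while Smr2 was at 95, 81, 64 and 85 UMIs and Pip at 4, 3, 5 and 3. Their mitochondrial shares, which the chi-square left out, were 4.05%, 3.80%, 2.37% and 3.59%. Whether these barcodes are 4 cells or 1 was not tested, so the count of 18 high cells, and each count out of 18, is a count of barcodes. With the 4 counted as 1, keeping the deepest, the high cells number 15 and the proximal levels are 558 CPM for Prol1, 36.5 for Smr2 and 34.6 for Pip. Cells 2 and 7 also stood apart, with 0.0925% and 0.188% of their UMIs from mitochondrial genes against 2.24% or more in each other high cell.

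**Figure D3:**
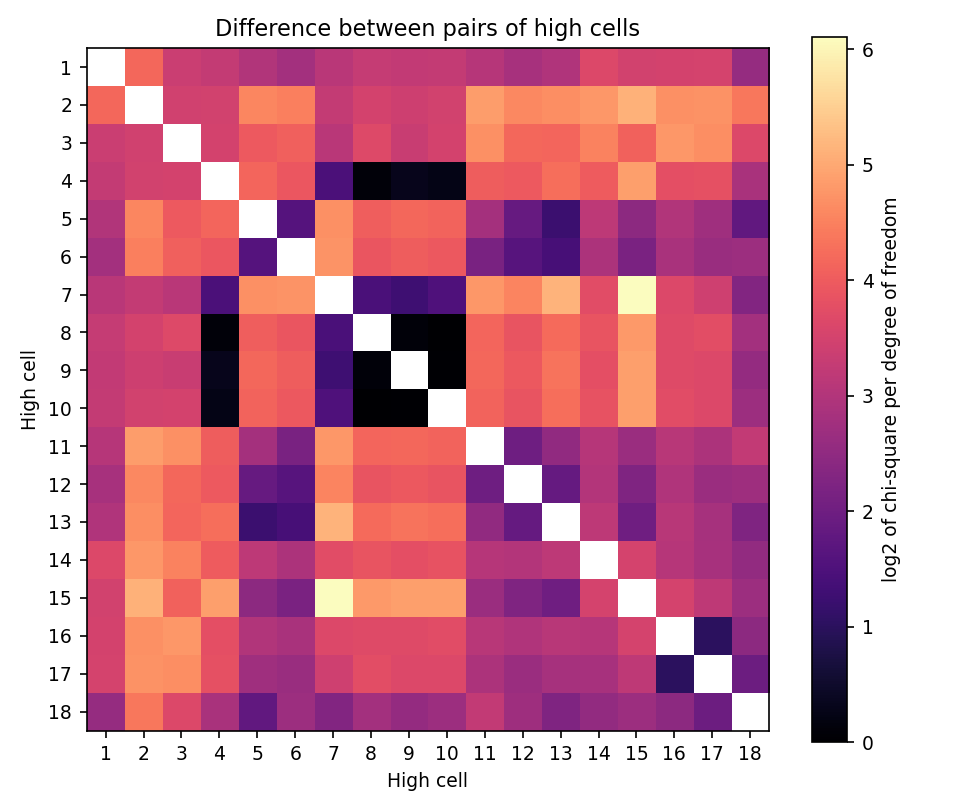
Difference between each pair of high cells, as log2 of the chi-square per degree of freedom, where 0 is counting noise alone (black) and the diagonal is empty. Cells 4, 8, 9 and 10 form the black block, with values of 1.02 to 1.24 before the log.

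The 9 cells with 2310057J18Rik and the 9 without it differed in what else they held, as counted after seeing the values and without a test. All 9 of the first set held Smr2 against 2 of the second, and 4 of each set held 10 or more Pip UMIs. Odam, a secreted protein first known from enamel-forming cells and a neighbour of Smr2 on chromosome 5, was found in 7 of the first set (pooled level 3150 CPM) and 2 of the second (15.3 CPM). Mup20, a major urinary protein, was found in 6 (486 CPM) against 0, and Car6, the secreted carbonic anhydrase of saliva, in 4 (539 CPM) against 0. Car6 rested on cell 2, with 82.7% of its UMIs. Lpo, the peroxidase of milk, tears and saliva, was found in 5 (99.9 CPM) against 0. Mup4 was at 193 CPM (6 cells) and 168 CPM (4 cells), and Wfdc18 was at 273 CPM (3 cells) and 581 CPM (4 cells), with 63 of the second set's 76 UMIs in cell 15 alone, so it gives no direction. The 4 alike barcodes are all in the first set. With them counted as 1, that set has 6 cells, of which 6 held Smr2, 4 Odam (2217 CPM), 3 Mup20 (316 CPM), 3 Car6 and 2 Lpo (41.5 CPM, 5 UMIs).

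Ly6d and some other epithelial genes were higher in the second set. Ly6d, a surface protein of several epithelia, was found in 0 of the first 9 cells and 6 of the second (2226 CPM, with 38.1% of it from cell 11), and Tm4sf1, another surface protein, in 2 (33.3 CPM) and 9 (2639 CPM, 54.2% of it from cell 11). The keratin Krt18 was found in all 18 cells, at 1398 CPM in the first set and 5508 CPM in the second. Epcam, an adhesion molecule of epithelia, was at 406 and 2731 CPM. Clu, clusterin, was at 166 and 7497 CPM, but few cells carried it. Cells 15, 16 and 17 held 421, 262 and 182 of the second set's 980 UMIs, and the other 6 cells of that set were at 1280 CPM, while cell 18 held 20 of the first set's 25 UMIs. Cells 16, 17 and 18 lie in cluster 1 of the clustering described next, whose cells that were not high had Clu at 5125 CPM. Other membrane genes did not follow: Aqp5 was at 713 and 375 CPM, Kcnn4 at 573 and 321 CPM and Cldn10 at 1285 and 941 CPM. The ranges of single cells overlap for Krt18 (673 to 2492 and 919 to 15448 CPM) and for Clu, while those for Tm4sf1 do not (0 to 70.1 and 228 to 14160 CPM). In the first set the median cell had 16.8% of its RNA as Prol1 and in the second 4.22%, which lowers the share left for any other gene; its part in these differences was not tested.

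**Figure D4:**
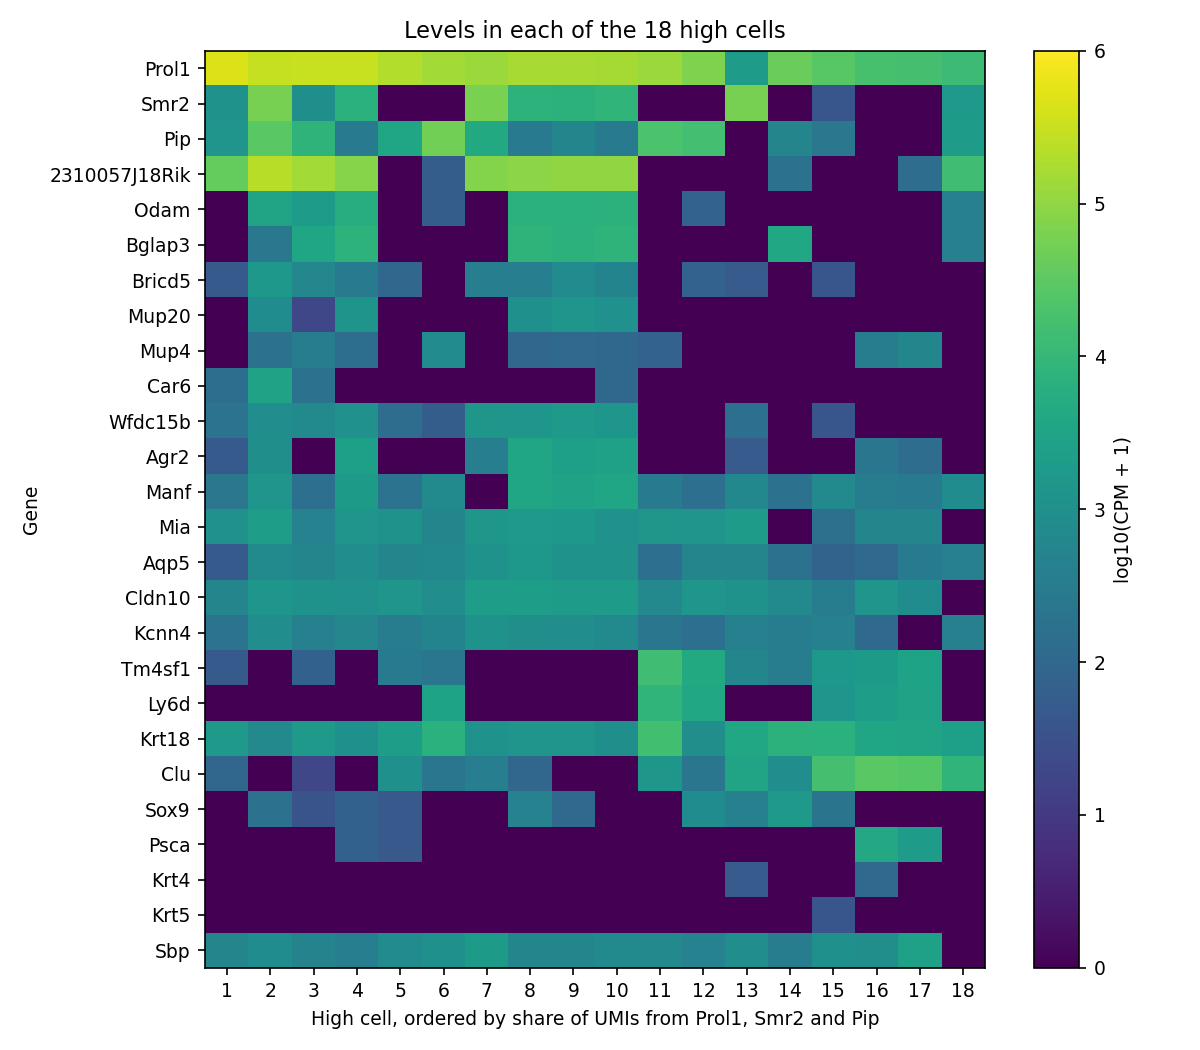
Level of 26 genes (rows) in each of the 18 high cells (columns), as log10(CPM + 1). Cells 1 to 4, 7 to 10 and 18 carry 2310057J18Rik, and Ly6d is found only among the other columns.

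Cells were clustered without the 3 genes, the listed neighbours of Prol1 and Smr2 and the listed salivary and lacrimal secretions. Other genes high in these cells, such as 2310057J18Rik and Aqp5, were not left out, so the clusters are not independent of them. In this clustering 14 of the 18 high cells fell in 1 cluster of 88 cells, here called cluster 0. A further 3 lay in a cluster of 413 cells (cluster 1) and 1, cell 11, in a proximal luminal-like cluster of 377. Proximal luminal cells line the ducts near the urethra. Cluster 0 was nearest to that class by its markers, 7 of 8 of which were detected, but was left without a name, since markers of a different class were more frequent among its leading genes. In cluster 0 Prol1 was at 24959 CPM (16974 without its top cell), Smr2 at 1535 CPM and Pip at 1174 CPM. Yet only 33 of its 88 cells held any Prol1, and its 74 cells that were not high had Prol1 at 411 CPM, with a UMI in 25.7% of them. One of those cells held 733 of their 786 Prol1 UMIs, and without it the level was 29.3 CPM.

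Outside these cells Prol1 stood at a similar low level in the larger classes. It was 12.7 CPM in distal luminal-like cells (the secretory cells of the lobes) and 14.5 CPM in basal-like cells. In fibroblast-like cells it was 15.6 CPM, and in macrophage-like cells 15.2 CPM (8.53 to 25.1, from 15 UMIs). Among proximal luminal-like cells it was 80.2 CPM, and 12.7 CPM without cell 11, which alone held 1664 UMIs. Among endothelial-like cells it was 105 CPM, and 12.4 CPM without 1 cell of 77 UMIs. After thinning to 1000 UMIs, Prol1 was found in 1.19% of basal-like, 1.64% of proximal luminal-like, 2.17% of distal luminal-like, 2.74% of fibroblast-like and 1.28% of macrophage-like cells, and in 17.0% of cluster 0. Median depths of these groups ranged from 10321 UMIs (fibroblast-like) to 48775 (distal luminal-like). These traces are at a level similar to that of macrophage-like cells. Whether they are background RNA or expression was not tested.

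Smr2 and Pip were low outside cluster 0 as well. In distal luminal-like cells Smr2 was at 4.45 CPM and Pip at 10.1 CPM, but 1 cell held 123 of the 152 Smr2 and 287 of the 345 Pip UMIs, and without the top cell the levels were 0.85 and 1.70 CPM. In macrophage-like cells Smr2 was at 2.03 CPM and Pip at 1.02 CPM, from 2 UMIs and 1 UMI. Smr2 was at 2.74 CPM (1.54 to 4.53) in fibroblast-like cells, from 15 cells with 1 UMI each, and at 0.79 (0.38 to 1.46) in basal-like and 0.89 (0.56 to 1.35) in proximal luminal-like cells, so its low level was not the same in all classes. In cluster 1, Smr2 was at 11.8 CPM and at 1.01 CPM without 1 cell of 128 UMIs. An unnamed group of 12 shallow cells (median 2226 UMIs) had Prol1 at 279 CPM, from 18 UMIs, and is too small to place.

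**Figure D5:**
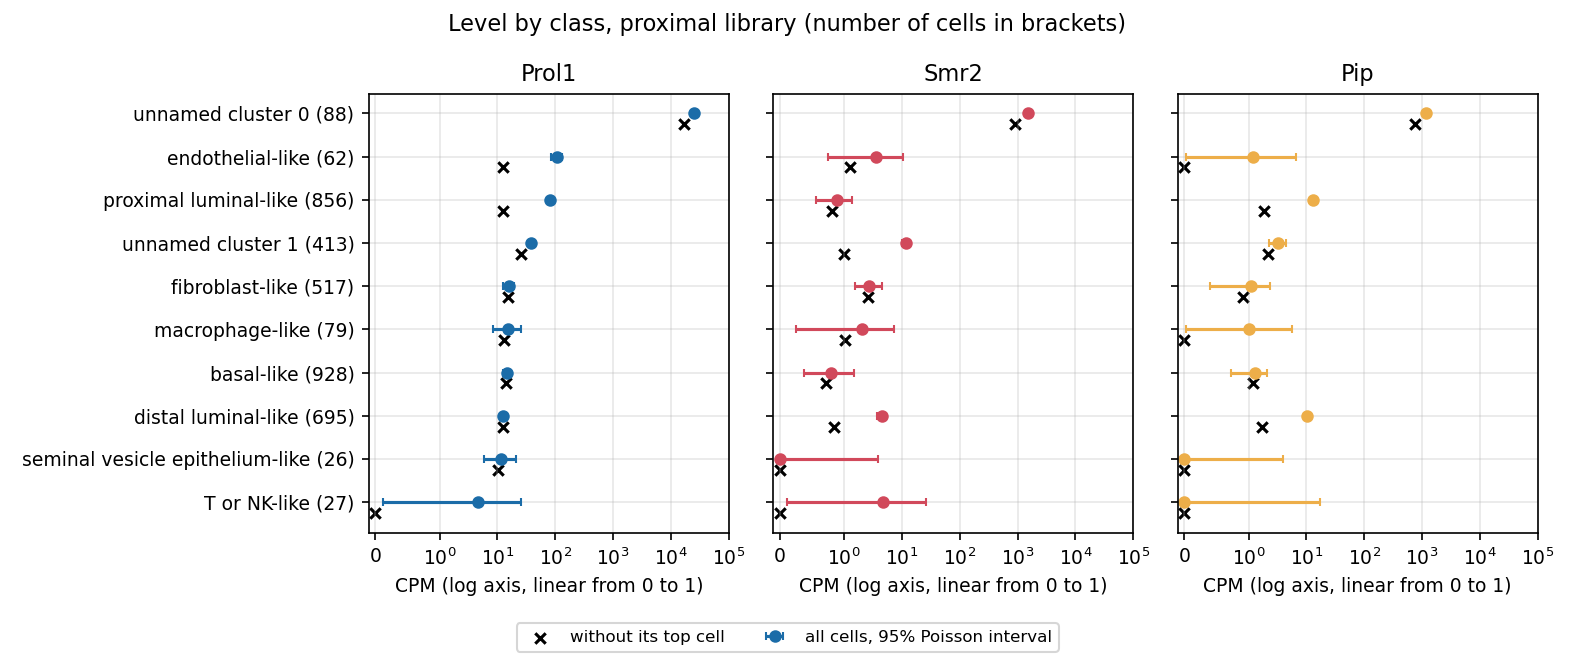
Level of each gene by class in the proximal library for groups of at least 20 cells, in CPM on a log axis that is linear from 0 to 1, with exact 95% Poisson intervals (points) and without the group's top cell (crosses). Cluster 0 is above all other groups for the 3 genes, and for Prol1 the crosses of the endothelial-like and proximal luminal-like groups fall to 12.4 and 12.7 CPM.

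To describe what else the high cells express, each gene's pooled CPM in the 18 cells was divided by that in the other 3691 proximal cells, with 10 CPM added to both. Of 16443 genes with enough UMIs, 43 (0.262%) were at least 4-fold higher (log2 ratio of 2 or more), the 3 genes themselves included, and 267 (1.62%) were at least 4-fold lower. All log2 values below are this ratio. Prol1, Smr2 and Pip, which chose the cells, had values of 12.57, 9.36 and 9.25. The highest besides them was 2310057J18Rik (10.84), followed by Bglap3, an osteocalcin-related gene (7.39), and Odam (6.95, from 1691 CPM against 3.74). With the 4 alike barcodes counted as 1, Bglap3 was at 6.80 and Odam at 6.30 (1071 CPM). Bglap3 has near-identical copies beside it, so its reads could be split among them. The pooled values weight deep cells more: cell 3 alone gave 45.1% of the 2310057J18Rik UMIs and 36.5% of the Bglap3 UMIs in the high cells. Some of the 43 genes rest on 1 or 2 cells. All 266 Apod UMIs in the high cells were in 1 cell, and all 60 Crisp1 UMIs were in 2.

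Some of the named genes encode secreted products. Bricd5, a gene with a BRICHOS domain, had a log2 ratio of 5.10 (356 CPM against 0.70) and was found in 12 of 18 cells. Mup4, a major urinary protein made in gland tissue, was at 4.25 (10 of 18 cells) and Mup20 at 4.75 (6 of 18). With the 4 alike barcodes counted as 1, Mup20 was at 4.01 (151 CPM, 3 cells). The Mup genes are a family of near-identical copies, so which copy is counted is uncertain. Wfdc15b, a protein with a whey acidic domain, was at 3.13 (12 of 18 cells) and its relative Wfdc18 at 4.20 (7 of 18, with 53.8% of its UMIs from cell 15). Car6 was at 4.87 but 82.7% of its UMIs came from cell 2. Mia, a small secreted protein, was at 3.34, with a UMI in 16 cells, 1043 CPM (927 to 1170) against 93.9 CPM.

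A water channel, an ion channel and a tight junction gene were found in nearly every high cell. Aqp5, the water channel of salivary and lacrimal acini, was found in 18 of 18 cells, from 1 UMI in cell 1 to 33 in cell 3, at 555 CPM (472 to 650) against 66.6 CPM, a log2 ratio of 2.88. Kcnn4, a calcium-activated potassium channel, was found in 17 cells (2.96) and Cldn10, a claudin that forms ion-selective tight junctions, in 17 (2.31). Slc31a2, a copper transporter (2.67), Chpt1, which makes phosphatidylcholine (2.35), and Selenom, a selenoprotein of the endoplasmic reticulum (2.19), were past the limit too. Of the class I MHC genes, H2-Q7 was at 3.83, while H2-K1 at 1.98 and the protease Ctsh at 1.79 were just under it, and at 2.33 and 2.13 with the 3 genes left out of each cell's total; reads of H2 genes can be split among similar copies. Tm4sf1 was at 3.53 with 53.4% of its UMIs from cell 11.

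Part of this was shared with the neighbouring cells. Set against the other cells of the clusters that hold the high cells, Aqp5 was at 1.69, Kcnn4 at 1.25, Cldn10 at 1.08 and Chpt1 at 1.52, all below the 4-fold limit, and 28 of the 43 genes stayed past it. Aqp5 was at 153 CPM in the cells of cluster 0 that were not high and 235 CPM in those of cluster 1, against 4.37 CPM in basal-like and 0 UMIs in macrophage-like cells.

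The lowest genes were the secretions of the prostate lobes and of the seminal vesicle. Svs5, a seminal vesicle secretion, had a log2 ratio of -6.34, Msmb -6.20, Defb50 (a beta-defensin) -6.11, Sbp -5.71 and Spink1 -5.58. In the high cells Sbp was at 744 CPM (647 to 852) and Spink1 at 424 CPM (351 to 507). Macrophage-like cells, at 1112 and 577 CPM, held more of both. Whether the values of the high cells are background RNA was not tested. Against the other cells of their own clusters the high cells had ratios of -0.80 for Svs5, -0.16 for Msmb, -0.79 for Defb50, -0.16 for Sbp and -0.03 for Spink1, so the low values are shared with those clusters.

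The gene lists drawn up for this work are given by count, beside a median log2 ratio of -0.21 over all 16443 genes. Of 11 listed neighbours of Prol1 and Smr2 on chromosome 5, including the caseins, the enamel genes and Smr3a, only Odam had enough UMIs. The other 10 were at 0 in the high cells. That list holds no Gm-number genes. Gm7714, annotated between Smr2 and Prol1, was at 2.79, and at 2.85 with the 4 alike barcodes counted as 1 (16 UMIs in 3 cells). Of 30 salivary and lacrimal secretions, 13 had enough UMIs, 4 were at least 4-fold higher (Car6, Mup4, Wfdc18 and Lpo at 2.62), of which Lpo, with 12 of its 15 UMIs in the 4 alike barcodes, was at 1.54 with them counted as 1; none was 4-fold lower, and the median was 0.05. In the high cells 19 of the 30 were at 0, among them Muc19, Muc5b, Bpifa2, Dcpp1 and Smr3a. Smr3a was at 0 in both libraries.

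Of 19 gland transcription factors and secretory cell genes, 17 had enough UMIs, 1 was lower and 3 were higher: Elf5, a factor of mammary and other gland epithelium (2.99, 9 of 18 cells), Aqp5 and Sox10, a factor of neural crest and of gland acini (2.27, from 12 UMIs in 6 cells). Bhlha15, which serous cells use to build their secretory apparatus, was at 0.01. Agr2, a secretory pathway protein, was at 530 CPM in high and 525 CPM in other cells (0.01), but 120 of its 149 UMIs were in the 4 alike barcodes, and with these counted as 1 it was at 251 CPM (-1.04). None of the 20 genes of protein folding and export in the endoplasmic reticulum passed the limit in either direction, with a median of 0.04. Of 14 mucins and trefoil factors, 13 were at 0 in the high cells and none passed.

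Of 12 androgen and prolactin response genes, 11 had enough UMIs, none was higher and 3 were lower, among them the prolactin receptor gene Prlr (-2.24, from 6 UMIs) and Pbsn (-4.63). Pip and Smr2 are named for their response to these hormones, and neither hormone was measured. Of 11 lobe secretions 10 were lower. Of 7 stress and immediate-early genes, which dissociation can induce, 5 were lower, among them Egr1 (-2.63), Fos (-2.54), Hspa1a (-2.20) and Jun (-2.12). Of 6 cell cycle genes none passed.

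Markers of the basal, distal luminal and proximal luminal classes were mostly low in the high cells. Of 8 basal markers, 6 were at least 4-fold lower, and Krt14, Krt17 and Trp63 were at 0, while Krt5 had 1 UMI. Of 8 distal luminal markers 7 were lower, and of 8 proximal luminal markers 5 were lower, among them Psca (-2.70) and Krt4 (-3.14, 2 UMIs in all), while Clu was at 0.97. Of 10 exocrine gland markers 7 had enough UMIs and 2 were higher, Aqp5 and Lpo, though Lpo fell under the limit with the 4 alike barcodes counted as 1 and Aqp5 against its own clusters, while Muc5b, Muc19, Dcpp1, Bpifa2 and Galnt12 were at 0. Of 7 periurethral markers Ly6d was higher (3.26, from 6 cells) and Gsta4 lower (-2.65). None of 6 urothelial markers passed in either direction and 4 were at 0, while Upk1a (0.46) was found in 14 of 18 cells. Smooth muscle and pericyte markers did not pass either. All neuroendocrine, dendritic, T or NK, mast, neutrophil and erythroid markers were at 0, and 6 of 7 macrophage markers were. The high cells are given no cell type name here.

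Across the 3709 proximal cells the likeness of the 3 genes rested on few cells. On log-transformed UMIs per 10000, the Pearson correlation was 0.67 for Prol1 and Pip, 0.54 for Prol1 and Smr2 and 0.49 for Smr2 and Pip, and the rank correlations, which give the many cells at 0 or 1 UMI equal weight, were 0.08, 0.10 and 0.19. The cells share 1 library and its background RNA. The gene 2310057J18Rik correlated at 0.64 with Prol1, 0.67 with Smr2 and 0.53 with Pip. It is not in the ranking that follows, which skips Rik and Gm-number names, and would come second for Prol1, first for Smr2 and second for Pip beside the genes ranked. Among the genes ranked, those most like Prol1 were Pip, Bricd5 (0.61), Smr2, Odam (0.52) and Bglap3 (0.50). Those most like Smr2 were Odam (0.65), Bricd5 (0.65), Prol1, Pip and Bglap3 (0.44), and those most like Pip were Prol1, Bricd5 (0.52), Smr2, Odam (0.43) and Wfdc18 (0.33). With the 4 alike barcodes counted as 1, the order for Smr2 changed: Bricd5 (0.55) came before Odam (0.54), Pip (0.47) before Prol1 (0.45), and Bglap3 was at 0.25.

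Pip was the only one of the 3 with more than 2 UMIs in the ventral library. Its 142 ventral UMIs were in 29 cells, 17 of them with 1 UMI, while 5 held 45, 20, 13, 11 and 10 UMIs and together 69.7% of the total. The top cell, with 45 Pip among 32320 UMIs, held 7394 Sbp and 8166 Spink1 UMIs, the ventral lobe secretions, and was distal luminal-like. The second to the fifth held 2739 to 8830 Sbp UMIs and were distal luminal-like or in an unnamed cluster whose best match was that class. None of the 5 held 2310057J18Rik, Odam or Aqp5. The ventral library held 0 UMIs of 2310057J18Rik, Odam, Mup20, Mup4 and Car6, while Mia (69.0 CPM) and Aqp5 (13.2 CPM) were present.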

How the data were processed

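Cells were counted in 1 ventral and 1 proximal library. The deposited values are raw UMI counts; per the file headers, Cell Ranger 7.0.0 made the matrices. The build is mm10 per the submitters' processing notes, and the annotation release is not given in the sources used here. Symbols were matched by identifier to GENCODE vM21, and promoters to RefSeq GRCm38.p6 (3 of 3 genes matched).

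Barcodes with under 500 genes or over 10% mitochondrial UMIs were left out (226 ventral, 635 proximal). Scrublet called 7 ventral and 4 proximal doublets, so few that the caller has not worked, and doublets were not removed. Counts were scaled to 10000 per cell and logged, and 2000 variable genes gave 30 principal components, 15 neighbours and Leiden clusters at resolution 1 (seed 0), 14 ventral and 21 proximal. Clusters were named from lists of 20 classes. A named cluster needed 3 markers found in 25% of its cells, and no other class with more markers among its leading genes; this scoring was set after clusters were seen.

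The 3 genes and all lists were chosen with earlier results of these data known. Named genes are up to 15 with the highest ratio among those in 50% of high cells with at least 50 UMIs there, up to 5 with the lowest ratio among those of at least 50 CPM elsewhere, the 5 most like each of the 3 genes, and up to 4 per list past 4-fold. The rule skipped mitochondrial, ribosomal and immunoglobulin genes and Gm-number and Rik names. Other genes, 2310057J18Rik, Bglap3 and Mup20 among them, were named after their values were seen. A gene needed 10 UMIs in high cells or 50 in all to be compared. No p-value was computed. The values of 1 listed gene are not reported here.

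Simulated data were tested: of 200 genes changed 8-fold in the high cells, 100% had the right sign and 88.5% passed 4-fold. The simulated high cells were all drawn from the same profile, without differences among cells, and scarce genes were left unchanged. These rates therefore do not carry over to genes held by few high cells or scarce elsewhere. The tools were pandas 2.3.3, numpy 2.4.6, scipy 1.17.1, igraph 0.11.9 and scanpy 1.11.5 under Python 3.11.15. Alternatives covered the filters, thinning, doublet scores, the limit for high cells, the pseudocount, the reference cells and the clustering.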

Additional observations from a re-analysis of the deposited data

Results flagged for a closer look

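Barcodes removed by the filter on cells, which no comparison above uses, held 2044 Prol1, 48 Smr2 and 167 Pip UMIs in the proximal library and 0 of each in the ventral library. Most came from 1 barcode with 1816 Prol1, 27 Smr2 and 126 Pip UMIs among 11640, or 16.9% of its RNA, which had 13.2% mitochondrial UMIs and would otherwise count as a further high cell; it also held 30 UMIs of 2310057J18Rik. A second removed barcode held 9 Smr2, 26 Pip and 14 2310057J18Rik UMIs with 0 Prol1 among 5121 UMIs, at 25.6% mitochondrial.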

How the results depend on the processing

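No paired analysis was possible because each region is 1 library. In the proximal library, where all 3 genes follow in the order Prol1, Smr2, Pip, levels were 415, 24.4 and 24.9 CPM without each gene's top cell, 49.0, 3.24 and 1.93 CPM without its top 10, and 743, 64.4 and 42.0 CPM as a mean of per-cell CPM. Without high Scrublet scores Prol1 was at 626 and Pip at 32.8 CPM. The proximal over ventral ratio of Pip was 12.5 without the top cell of each library and 4.46 without the top 10, in place of 11.9, alternatives chosen after seeing the data. After thinning the shares of cells were 2.22%, 0.596% and 0.406%. The top cell held 17.3%, 26.2% and 33.6% of the per-cell CPM; Prol1's top cell held 30.8% with no filter on cells and 32.3% without high Scrublet scores, where Pip's held 30.9%. With the 4 alike barcodes counted as 1, an alternative chosen after seeing the data, Prol1 was at 558 and Smr2 at 36.5 CPM, and their top cells held 34.8% and 39.8%. Of the 43 genes at least 4-fold higher 42 stayed so, all but Lpo. Genes at least 4-fold higher and lower numbered 166 and 2813 with 1 CPM added and 13 and 34 with 100 CPM added. Rank correlations were 0.0968 (Prol1, Smr2), 0.0817 (Prol1, Pip) and 0.188 (Smr2, Pip), and thinned cells gave 0.57 for Prol1 and Pip and 0.37 for Smr2 and Pip. The number of high cells, 18, and the 14 in 1 cluster stayed within 1.5 times under all alternatives run. The size of that cluster did not: it had 88 cells in the main run, 701 at resolution 0.5 and 151 at resolution 2. With no genes left out of the clustering it had 86 cells and was named proximal luminal-like. Of 184 log2 ratios of 23 named genes under alternatives, 162 kept their side of 4-fold, 18 fell under it, 4 rose past it and 0 changed direction. The 23 include genes lower in the high cells: Svs5, Msmb, Defb50, Sbp and Spink1. Each of these fell under 4-fold against the other cells of the same clusters.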
